A study of Mus musculus with 8 samples.

Results

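The 10 heat shock and chaperone genes described here (Hspa1a, Hspa1b, Hspa8, Hspa5, Hsp90aa1, Hsp90ab1, Hsph1, Dnajb1, Hspb1 and Hspe1) were selected by name from the 31053 genes of the count matrices, with earlier results of these data known. All 10 were found, and their UMIs (transcripts counted once each by a molecular barcode) were summed over the 23687 cells that the study annotated by cell type. The values that made these genes of interest were their levels across cell types, so those levels are given as a description without a test. Levels are in CPM: the share of the gene among all UMIs of the cells of a type in a library, scaled to 1000000 UMIs.

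The study profiled single cells dissociated from prefrontal cortex (PFC) and from striatum of Setd1a+/- male mice and wild-type (WT) male littermates by droplet sequencing. Each tissue had 2 WT and 2 Setd1a+/- libraries, each pooled from 2 animals, and 1 library of each genotype was made in each of the replicates 1 and 2. The labels give the strain C57BL/6N and an age of 8 to 10 weeks, while the methods of the study state an older age. The labels also name the nucleus accumbens (NAc) where the methods name the striatum. Setd1a encodes a histone H3 lysine 4 methyltransferase, and the mutant allele is a small frameshift deletion made with CRISPR-Cas9 ahead of the catalytic domain, in a single mouse line. The deletion is too small to remove counts at the end of the transcript. Setd1a was at 8.45 and 11.2 CPM over all annotated PFC cells in WT and at 5.59 and 9.33 CPM (Setd1a+/-), and in striatum at 13.4 and 15.2 CPM (WT) and at 9.16 and 12.5 CPM (Setd1a+/-). The ranges of the genotypes therefore overlapped in PFC and did not overlap in striatum.

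The libraries held 15154268 to 26277553 UMIs and 1508 to 4361 annotated cells each, and the annotated cells had medians of 2302.5 to 3042 UMIs. Any pair of libraries shared at most 24 cell barcodes, under 1% of the cells of either. The PFC cell types were excitatory neurons, interneurons, astrocytes, endothelial cells, microglia, oligodendrocyte progenitor cells (OPCs), newly formed oligodendrocytes and oligodendrocytes. The striatum had D1 and D2 medium spiny neurons (MSNs) and neural stem cells with neuroblasts in place of the excitatory neurons. The cells annotated as endothelial carried endothelial markers (Cldn5, Flt1, Ly6c1 and Pecam1, 5319 to 9710 CPM in sum). They also carried markers of mural cells (Pdgfrb, Vtn, Rgs5 and Acta2, 3977 to 4980 CPM in sum). Few held 2 or more mural marker UMIs and no endothelial marker UMI. These were 2, 0, 0 and 0 of 599, 285, 521 and 157 cells in PFC (WT 1, WT 2, Setd1a+/- 1, Setd1a+/- 2). In striatum they were 8, 4, 4 and 2 cells. Most PFC cells (491, 240, 432 and 127) met neither this rule nor its reverse. Whether the mural transcripts came from separate cells was not tested, and endothelial cells below means the annotated group. In all tests the p-values measure the spread between these libraries.

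Heat shock proteins are molecular chaperones and their partners, which help other proteins fold, be remodelled or be cleared. Many, but not all, bind unfolded stretches of those proteins and use cycles of ATP hydrolysis. Constitutive members work in every cell, while inducible members are switched on within minutes of heat, oxidative or proteotoxic stress when heat shock factor 1 binds heat shock elements in their promoters. HSP70 proteins act with HSP40 (J-domain) partners and with nucleotide exchange factors, hand some clients on to HSP90, and have specialised relatives in the endoplasmic reticulum (ER) and mitochondria. The enzymatic dissociation of brain tissue is known to switch on stress genes in some cells, so levels measured in dissociated cells need not be those in the intact brain.

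Hspa1a, the main stress-inducible HSP70, was found almost entirely in endothelial cells. In PFC endothelial cells its level was 3706 and 1446 CPM (WT replicates 1 and 2) and 2830 and 1042 CPM (Setd1a+/- replicates 1 and 2). In striatal endothelial cells it was 1374 and 1852 CPM (WT) and 1293 and 1448 CPM (Setd1a+/-). Replicate 1 was high in both genotypes in PFC, the striatal libraries lay close to each other, and the genotypes overlapped in both tissues. The mean was 2256 ± 1233 CPM in PFC and 1491 ± 248 CPM in striatum (mean ± SD of the 4 libraries of a tissue, both genotypes, here and below), 11.4 and 11.8 times the level in microglia, the next type in each tissue. No library of another type reached the lowest endothelial library. The lowest means were 7.17 ± 3.05 CPM in PFC OPCs and 7.10 ± 10.9 CPM in striatal newly formed oligodendrocytes, and neurons were near them, with 10.8 ± 3.85 CPM in excitatory neurons, 9.18 ± 5.14 CPM in D1 MSNs and 7.93 ± 2.35 CPM in D2 MSNs.

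Endothelial cells were 10.4 to 23.8% of the annotated PFC cells but held 88.3 to 97.4% of the Hspa1a UMIs, and in striatum 9.54 to 16.7% of the cells held 90.2 to 93.5%. Free RNA, read from droplets with 1 to 100 UMIs, carried Hspa1a at 53.5 to 395 CPM in PFC and at 81.3 to 147 CPM in striatum. The levels in neurons and OPCs were below those of the free RNA of their own libraries. Microglia were the only other type above 100 CPM on average (198 ± 204 CPM in PFC and 126 ± 34.7 CPM in striatum), and in PFC their libraries had the order of their vascular transcripts: Hspa1a in PFC microglia was 74.5, 222, 476 and 19.5 CPM where the summed endothelial markers were 420, 1049, 1134 and 229 CPM (WT 1, WT 2, Setd1a+/- 1, Setd1a+/- 2). In striatal microglia Hspa1a was at 88.2, 155, 156 and 105 CPM and the endothelial markers at 676, 520, 1308 and 314 CPM, in another order. The part of vascular RNA in the microglial values was not tested.

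Hspa1b, the neighbouring and nearly identical inducible HSP70 gene, followed the same pattern at few UMIs. In PFC endothelial cells Hspa1b was at 109 and 39.8 CPM (WT) and at 43.6 and 28.9 CPM (Setd1a+/-), and in striatal endothelial cells at 20.5 and 29.6 CPM (WT) and at 29.2 and 40.1 CPM (Setd1a+/-). Its next highest means were 2.98 ± 5.95 CPM in newly formed oligodendrocytes in PFC and 5.54 ± 6.44 CPM in astrocytes in striatum, and no library of another type reached an endothelial library of the same tissue. The last 500 bases of the annotated transcripts of Hspa1a and Hspa1b shared none of their 411 windows of 90 bases with each other or with another gene, so reads from the transcript end could be assigned to either gene.

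The promoters of both genes are shown because they are textbook examples of stress-inducible promoters. The windows run from 250 bases before to 50 bases after the RefSeq start site (build GRCm38.p6), and the capitals mark GAANNTTC, the core of a heat shock element as 2 inverted GAA units, which reads the same on both strands.
Hspa1a, chr17:34972107-34972406, minus strand: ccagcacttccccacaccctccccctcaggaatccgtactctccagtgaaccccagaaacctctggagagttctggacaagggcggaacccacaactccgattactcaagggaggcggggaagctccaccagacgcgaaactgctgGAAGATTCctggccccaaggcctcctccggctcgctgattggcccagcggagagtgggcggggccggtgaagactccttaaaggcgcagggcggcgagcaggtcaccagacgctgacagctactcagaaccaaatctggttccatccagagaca
Hspa1b, chr17:34959189-34959488, minus strand: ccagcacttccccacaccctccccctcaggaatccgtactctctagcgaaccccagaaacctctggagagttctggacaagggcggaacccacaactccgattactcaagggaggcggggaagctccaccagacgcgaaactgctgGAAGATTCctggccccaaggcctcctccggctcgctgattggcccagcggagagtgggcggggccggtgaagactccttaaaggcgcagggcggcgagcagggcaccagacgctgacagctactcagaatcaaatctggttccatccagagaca
The windows were identical at 296 of 300 bases, and in both the motif lay 104 to 97 bases before the start site. In the transcript annotation used for the counts, Hspa1a lies at chr17:34969190-34972156 and Hspa1b at chr17:34956436-34959238, both on the minus strand.

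Within the endothelial population Hspa1a was uneven between cells. Each cell was thinned to 1000 UMIs so that depth could not set the share of cells with a UMI, and no cell was too shallow for this. Then 87.5% and 60.0% of PFC endothelial cells in WT replicates 1 and 2 and 83.5% and 59.9% in Setd1a+/- replicates 1 and 2 had a Hspa1a UMI (before thinning, 92.7%, 77.2%, 91.9% and 75.8%). In striatum 60.1% and 65.5% of WT and 60.0% and 63.0% of Setd1a+/- endothelial cells had one after thinning. The share among PFC excitatory neurons, at median depths of 5732 to 9177.5 UMIs before thinning against 2124 to 2756 in PFC endothelial cells, was 0.673 to 2.68% after thinning. After thinning the share was 1.67 to 6.00% in PFC interneurons, 1.21 to 4.35% in striatal interneurons and 0.436 to 1.89% in D1 and D2 MSNs. In every library the endothelial share was above that of each of these neurons.

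The libraries differed most in the endothelial cells rich in Hspa1a. Cells with 5 or more Hspa1a UMIs after thinning made up 32.9% and 6.67% of WT and 23.0% and 3.18% of Setd1a+/- PFC endothelial cells in replicates 1 and 2. In striatum these shares were 6.43% and 13.4% in WT and 5.70% and 9.24% in Setd1a+/-. Both PFC libraries of replicate 1 stood above all other libraries. Cells that held 2 or more UMIs of endothelial markers but none of a mural marker had 4102, 1748, 3103 and 1012 CPM of Hspa1a in PFC (WT 1, WT 2, Setd1a+/- 1, Setd1a+/- 2) and 1017, 1233, 1195 and 1441 CPM in striatum. These were 106, 45, 89 and 30 of the PFC and 61, 83, 74 and 26 of the striatal endothelial cells. In all 4 striatal libraries they lay below the whole population (1374, 1852, 1293 and 1448 CPM). In PFC they lay above it (3706, 1446 and 2830 CPM) except in Setd1a+/- replicate 2 (1042 CPM). Striatal cells with 2 or more mural marker UMIs and no endothelial marker UMI had 574, 0, 435 and 1658 CPM, from 8, 4, 4 and 2 cells. The part of mural cells in the level was not tested. The 10 acute response genes (immediate early genes such as Fos, Jun and Egr1) were summed over all annotated endothelial cells, whatever their Hspa1a level. Their sums were 7516 to 12947 CPM in PFC and 11223 to 14230 CPM in striatal endothelial cells. Red blood cell transcripts (Hbb-bs, Hba-a1 and Hba-a2) summed to 4483 to 23978 CPM there, with the highest sums in PFC WT replicate 1 and PFC Setd1a+/- replicate 2.

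**Figure D1:**
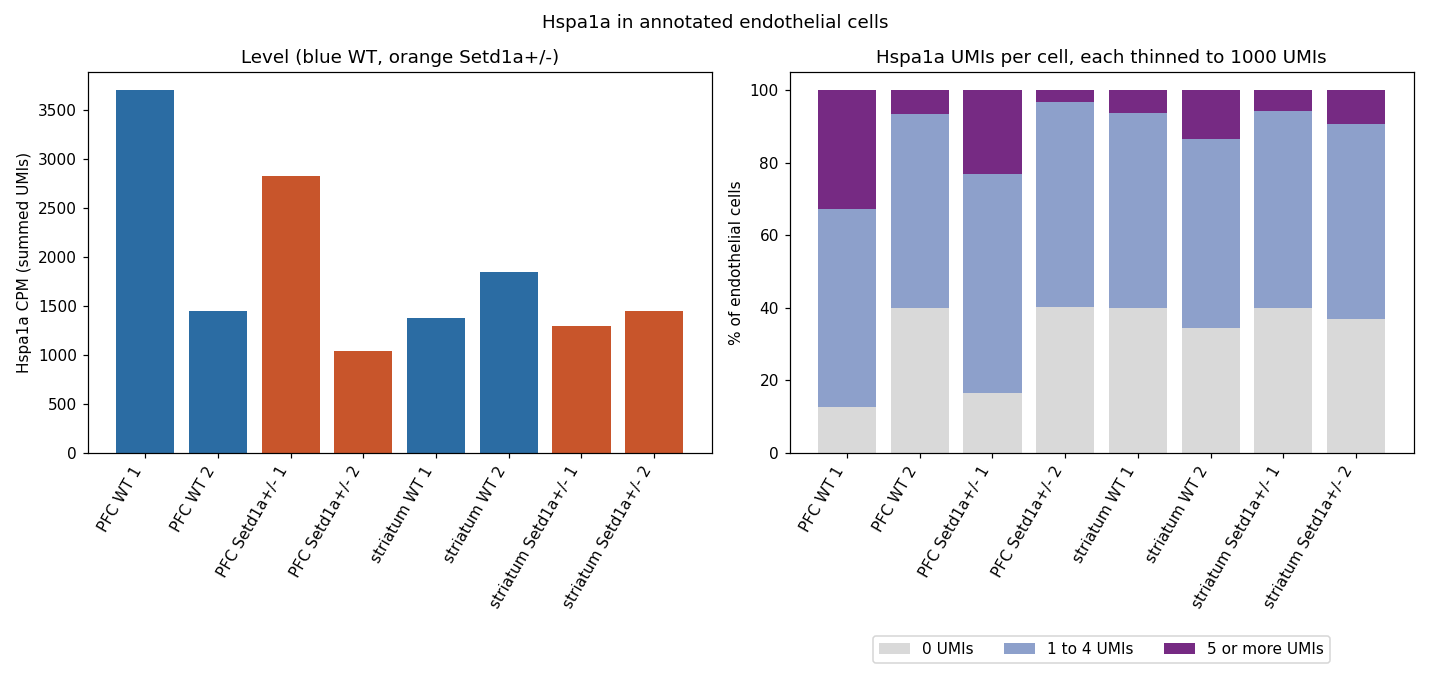
Hspa1a in cells annotated as endothelial, 1 bar per library (blue, WT; orange, Setd1a+/-). The left panel gives the CPM of summed UMIs from 0, and the right panel the percent of cells with 0 (grey), 1 to 4 (light blue) and 5 or more (purple) Hspa1a UMIs after thinning each cell to 1000 UMIs; the PFC libraries of replicate 1 are the tallest bars, at 3706 and 2830 CPM, and have the fewest cells at 0.

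Dnajb1, the HSP40 partner that stimulates the ATPase of HSP70 and is induced with it, was also highest in endothelial cells. Its level there was 282 and 140 CPM (WT) and 243 and 142 CPM (Setd1a+/-) in PFC, and 159 and 195 CPM (WT) and 168 and 229 CPM (Setd1a+/-) in striatum. In PFC the endothelial mean of 202 ± 71.5 CPM was 3.21 times that of oligodendrocytes, the next type, and the libraries of these types did not overlap. In striatum the endothelial mean of 188 ± 31.7 CPM was 1.48 times that of neural stem cells and neuroblasts (127 ± 51.4 CPM), and these overlapped. The remaining types had means of 21.2 to 81.3 CPM, beside free RNA at 49.5 to 82.3 CPM over the 8 libraries.

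Endothelial cells rich in Hspa1a more often held a Dnajb1 UMI as well, at the same 1000 UMIs per cell. Of the PFC endothelial cells with 5 or more Hspa1a UMIs, 31.0% and 26.3% in WT and 20.8% and 1 of 5 cells in Setd1a+/- had a Dnajb1 UMI, against 16.0% and 7.89% in WT and 17.4% and 7.94% in Setd1a+/- of the cells with none. In striatum the shares were 12.8% and 24.3% in WT and 19.4% and 27.3% in Setd1a+/-, against 12.8% and 13.9% in WT and 14.6% and 9.09% in Setd1a+/-. The share was higher with Hspa1a in every library, although in striatum WT replicate 1 the shares were the same to 3 digits. The groups of Hspa1a-rich cells were small, from 5 cells in PFC Setd1a+/- replicate 2 to 197 cells in PFC WT replicate 1, and these shares are a description of the cells counted. The CPM of Dnajb1 was higher in the Hspa1a-rich cells in 7 of the 8 libraries, striatum WT replicate 1 being the exception (128 against 136 CPM). Shares of cells with Hspb1 and with Hspa8 were also higher there in 7 of 8 libraries each, that with Hspa1b in 6, that with Hspa5 in 5 and that with Hsp90aa1 in 3. The share of all genes that were higher in the Hspa1a-rich cells was not counted, so these counts have no background beside them. A general difference between the groups of cells was not tested.

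Hspb1 (HSP27), a small heat shock protein that holds unfolded proteins without ATP and is abundant in vessel walls, was also found almost entirely in endothelial cells, which held 94.7 to 100% of its UMIs in PFC and 88.3 to 90.7% in striatum. PFC endothelial cells had 165 and 118 CPM (WT) and 91.6 and 98.9 CPM (Setd1a+/-), and striatal endothelial cells had 187 and 122 CPM (WT) and 219 and 166 CPM (Setd1a+/-). The genotypes stood apart in PFC, with WT higher, and overlapped in striatum. No Hspb1 UMI was seen in PFC interneurons or newly formed oligodendrocytes, and excitatory neurons were at 0.101 ± 0.127 CPM. After thinning, 7.01 to 17.1% of endothelial cells had a Hspb1 UMI in the 8 libraries, and 0% of PFC excitatory neurons did, where the limits that a count of 0 allows run from 0.252% (1189 cells, WT replicate 2) to 0.732% (410 cells, WT replicate 1) and hold for a UMI at this depth. Before thinning 0.244% and 0.0841% of the excitatory neurons of WT replicates 1 and 2 had a Hspb1 UMI. Of the last 500 bases of the Hspb1 transcript, 29 of 411 windows of 90 bases are shared with the pseudogene Hsp25-ps1, so reads from these could not be assigned to either. The Hspb1 promoter held the GAANNTTC motif at 2 places, 117 to 110 and 97 to 90 bases before the start site (GRCm38.p6, capitals as above).
Hspb1, chr5:135887669-135887968, plus strand: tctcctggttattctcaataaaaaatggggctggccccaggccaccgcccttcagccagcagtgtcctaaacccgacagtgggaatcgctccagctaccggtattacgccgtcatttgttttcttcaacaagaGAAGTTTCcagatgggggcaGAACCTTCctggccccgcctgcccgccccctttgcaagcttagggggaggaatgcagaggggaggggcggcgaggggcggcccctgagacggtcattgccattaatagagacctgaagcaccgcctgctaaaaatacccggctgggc

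Of the 10 members, 7 had a RefSeq promoter window, and the motif was in 5 of them: Hspa1a, Hspa1b, Hspb1, Hsph1 and Hspe1. Hspe1 held 1 copy, 84 to 77 bases before its start site. The other arrangement of inverted GAA units, TTCNNGAA, which also reads the same on both strands, was in 2 members: in Hspe1 at 89 to 82 and 79 to 72 bases before the start site, each overlapping the GAANNTTC copy, and in Hsph1. The Dnajb1 and Hspa5 windows contained neither, which says nothing of other forms of the element or of sites elsewhere. Among all genes with a window, 9.04% held GAANNTTC and 9.60% held TTCNNGAA. Hsp90aa1, Hsp90ab1 and Hspa8 had no window in the table used.

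The constitutive cytosolic chaperones were not confined to endothelial cells and had high levels in neurons. Hspa8 (HSC70), the constitutive HSP70 that also uncoats clathrin-coated vesicles, was highest in interneurons in both tissues, at 1988 ± 235 CPM in PFC and 2264 ± 190 CPM in striatum. Excitatory neurons followed in PFC at 1699 ± 160 CPM, and D2 and D1 MSNs in striatum at 2184 ± 589 and 2181 ± 475 CPM. These neighbours overlapped between libraries, and without striatum WT replicate 2 or Setd1a+/- replicate 2 the D2 MSNs had the highest striatal mean (2340 and 2366 CPM), while PFC interneurons stood above the other 6 types in every library. The lowest means were 767 ± 106 CPM in PFC microglia and 1269 ± 325 CPM in striatal endothelial cells. Of the last 500 bases of Hspa8, 101 of 411 windows are shared, most of them with Gm15459, so part of its reads could have been lost or split. Free RNA carried Hspa8 at 1519 to 3710 CPM, above its level over all annotated cells in every library.

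Hsp90ab1 (HSP90-beta), the constitutive cytosolic HSP90, was highest in neurons in PFC. There it was at 1818 ± 152 CPM in interneurons and 1792 ± 238 CPM in excitatory neurons, which overlapped, and lowest in astrocytes at 569 ± 23.5 CPM. In striatum D1 and D2 MSNs were at 2491 ± 317 and 2478 ± 385 CPM, which overlapped with oligodendrocytes at 2441 ± 707 CPM. Striatal interneurons were at 2053 CPM on average, below oligodendrocytes, neural stem cells with neuroblasts, newly formed oligodendrocytes and OPCs. Without striatum Setd1a+/- replicate 2 the highest mean was that of oligodendrocytes (2701 CPM, against 2588 CPM in D1 MSNs), as it was without striatum WT replicate 2 (2581 against 2575 CPM). Astrocytes were again lowest at 1329 ± 349 CPM. The span from the highest to the lowest type was 3.2-fold in PFC and 1.88-fold in striatum.

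Hsp90aa1 (HSP90-alpha), the inducible cytosolic HSP90, varied more between types. In PFC, interneurons (1677 ± 234 CPM), excitatory neurons (1655 ± 174 CPM) and oligodendrocytes (1519 ± 144 CPM) overlapped and stood apart from the rest, and astrocytes were lowest at 252 ± 36.2 CPM, 6.66-fold below interneurons. In striatum, neural stem cells and neuroblasts had the highest mean at 2438 ± 685 CPM, overlapping with oligodendrocytes (2032 ± 662 CPM), astrocytes (1863 ± 1015 CPM) and interneurons (1677 ± 363 CPM), and endothelial cells were lowest at 463 ± 116 CPM. Astrocytes were thus the lowest type for Hsp90aa1 in PFC and among the higher types in striatum.

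Hsph1 (HSP110), the nucleotide exchange factor that releases clients from HSP70, was highest in excitatory neurons in PFC and in MSNs in striatum. PFC excitatory neurons had 373 and 274 CPM (WT) and 291 and 256 CPM (Setd1a+/-), above every library of every other PFC type. Interneurons followed at 177 ± 60.4 CPM and microglia were lowest at 27.2 ± 11.5 CPM. In striatum D2 and D1 MSNs were at 348 ± 77.5 and 339 ± 47.3 CPM, interneurons at 266 CPM on average, astrocytes at 259 CPM with libraries from 91.7 to 362 CPM that overlapped those of the MSNs, and endothelial cells lowest at 64.8 ± 4.21 CPM.

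Hspa5 (BiP), the HSP70 of the ER and the main target of the unfolded protein response, was not a neuronal gene here. In PFC it was highest in microglia at 554 ± 101 CPM, followed by newly formed oligodendrocytes at 461 ± 159 CPM and OPCs at 408 ± 136 CPM, which overlapped, and lowest in excitatory neurons at 220 ± 73.7 CPM. In striatum OPCs had the highest mean, 725 ± 507 CPM, but no type was separate from the others with the libraries of a type far apart. Its promoter is shown for the ER stress element, marked in capitals (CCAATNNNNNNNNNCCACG on either strand), which lay 65 to 47 bases before the start site (GRCm38.p6) and was found in 37 of 27025 genes with a window (0.137%).
Hspa5, chr2:34771840-34772139, plus strand: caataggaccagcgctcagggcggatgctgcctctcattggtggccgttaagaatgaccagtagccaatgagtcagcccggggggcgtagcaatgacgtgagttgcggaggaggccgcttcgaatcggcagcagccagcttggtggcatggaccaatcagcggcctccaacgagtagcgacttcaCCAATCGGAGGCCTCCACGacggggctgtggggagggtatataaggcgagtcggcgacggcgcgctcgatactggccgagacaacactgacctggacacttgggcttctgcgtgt

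Hspe1 (HSP10), the lid of the mitochondrial chaperonin, was highest in newly formed oligodendrocytes in both tissues, at 626 ± 130 CPM in PFC and 745 ± 326 CPM in striatum. Interneurons in PFC (425 ± 92.9 CPM) and OPCs in striatum (512 ± 108 CPM) were next, and both overlapped with the highest type. Endothelial cells were lowest in both tissues, at 142 ± 35.5 and 152 ± 25.9 CPM, so the cell type richest in Hspa1a was poorest in Hspe1.

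**Figure D2:**
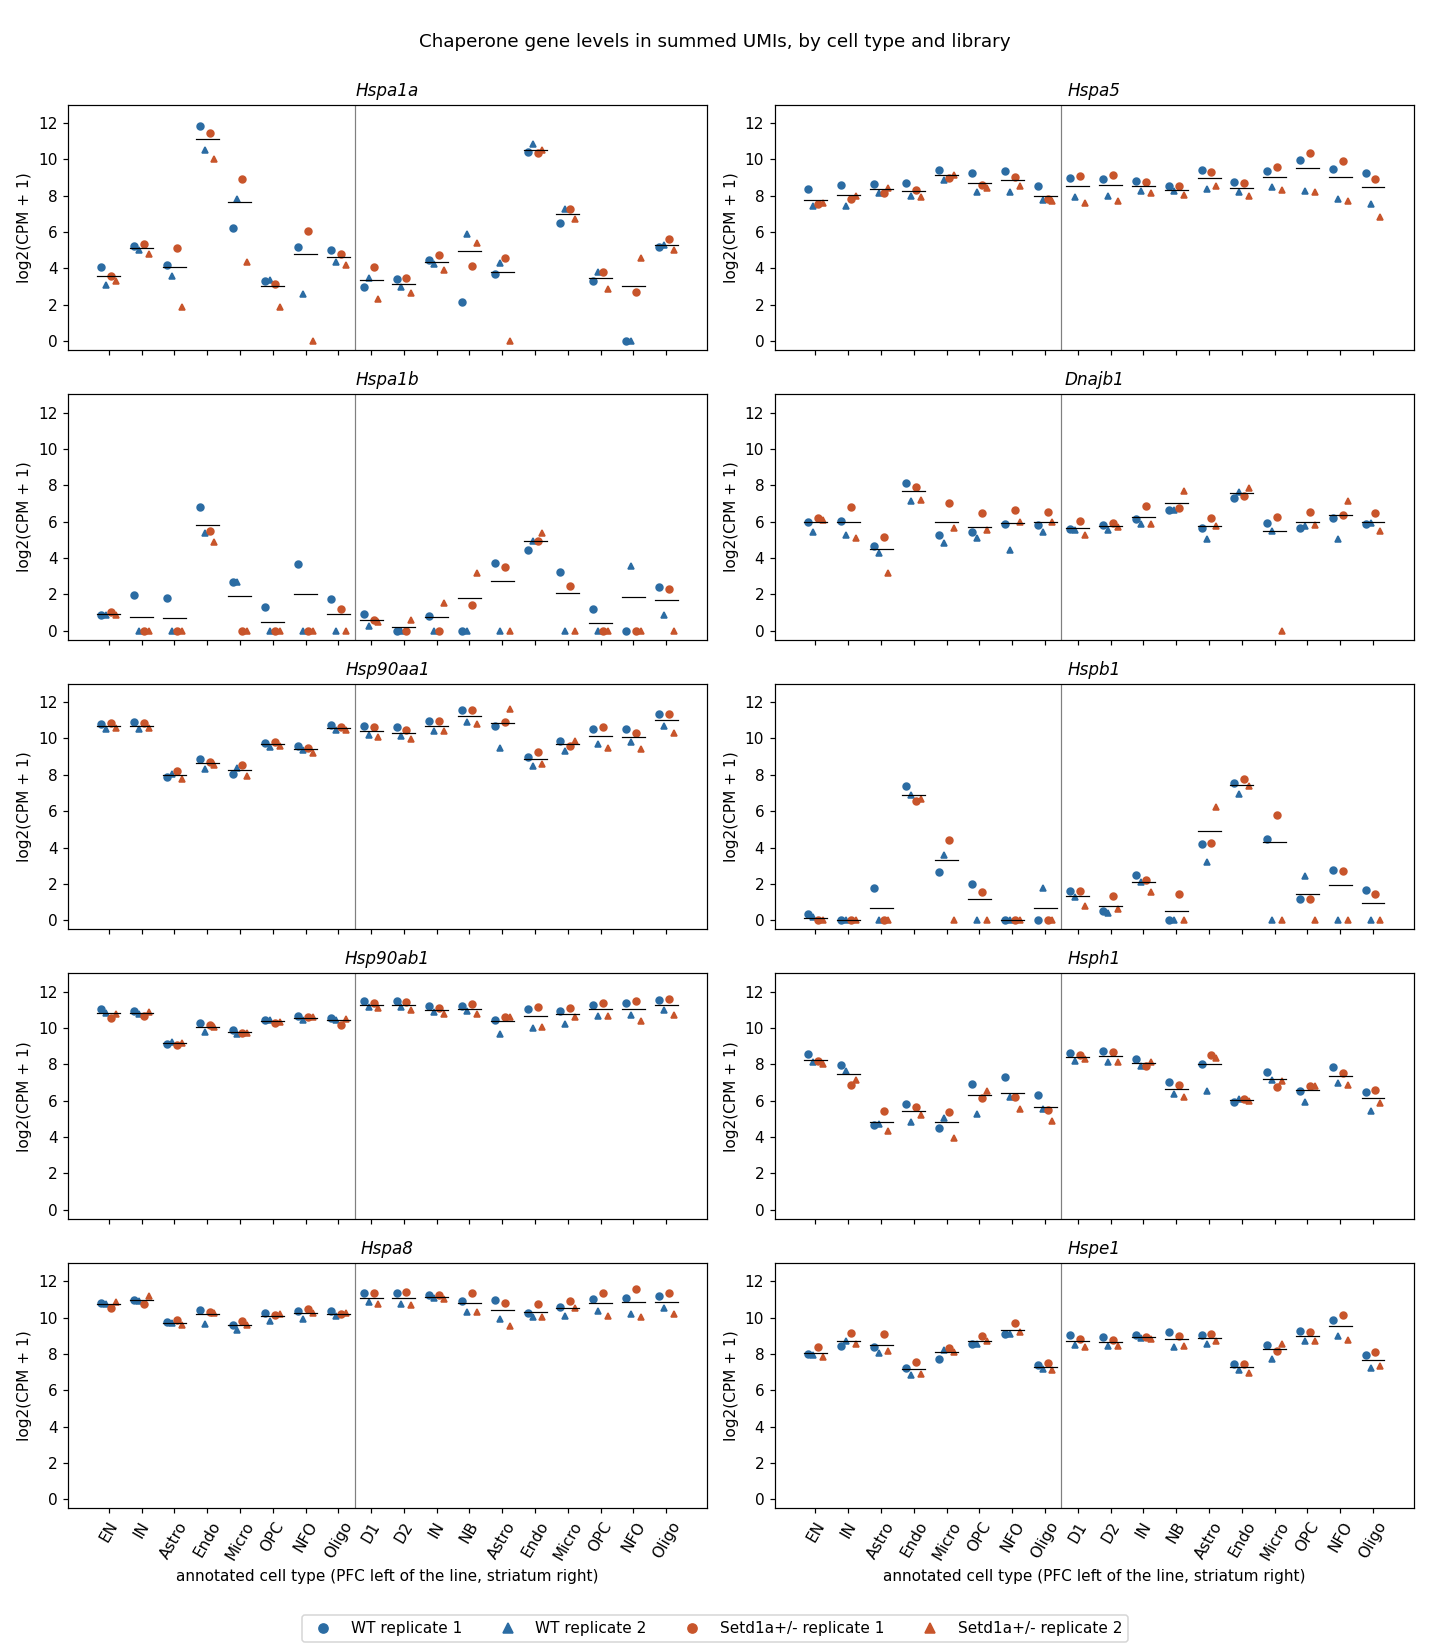
Level of each of the 10 genes by cell type in PFC and striatum, as CPM of summed UMIs on a log axis, 1 point per library. Hspa1a, Hspa1b and Hspb1 in endothelial cells lie above every other type of the same tissue. So do Dnajb1 in PFC endothelial cells and Hsph1 in PFC excitatory neurons, the latter at 256 to 373 CPM.

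Among the 7 annotated PFC excitatory neuron subtypes the abundant members varied by at most 1.61-fold between the highest and lowest mean, while Hspa1a varied 3.82-fold, Dnajb1 2.21-fold and Hspa5 2.05-fold. The subtype means ran from 1456 to 1906 CPM for Hsp90aa1, from 1406 to 2269 CPM for Hsp90ab1, from 1528 to 1987 CPM for Hspa8, from 242 to 360 CPM for Hsph1 and from 244 to 298 CPM for Hspe1. The deep-layer subtypes DL-Tshz2 and DL-Foxp2 had the highest means for Hsp90aa1, Hsp90ab1 and Hspa8 and DL-Etv1 the lowest, with overlapping libraries between neighbours. For Hsph1 the same subtypes were highest and SL-Cux2 lowest. DL-Foxp2 had the lowest mean for Hspe1 (244 CPM), Dnajb1 (49.9 CPM) and Hspa1a (7.27 CPM). The superficial subtype SL-Myh7 had the highest mean of Dnajb1 (110 ± 20.6 CPM, from 155 UMIs) and of Hspa1a (27.8 CPM, libraries at 15.6 to 41.4 CPM, from 35 UMIs), both overlapping with the next subtype. Hspa5 ran from 154 ± 32.5 CPM in DL-Etv1 to 315 ± 119 CPM in DL-Tshz2.

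The genes whose levels most resembled those of each member were found from the Pearson correlation of log2(CPM + 1) over the 18 groups of tissue and cell type, a description over groups that share libraries. Of the 12786 genes compared, Hspa1a was most like Abcb1a (r = 0.970), which encodes the P-glycoprotein pump of brain capillaries, Adgrl4 (r = 0.966) and Arhgap29 (r = 0.961). Hspb1 was most like Arhgef1 (r = 0.956), Gstm2 (r = 0.950) and Isg15 (r = 0.943), and Hspa1b most like Gbp2 (r = 0.940), Serpinb6b (r = 0.938) and Slc38a11 (r = 0.923). The constitutive cytosolic members were most like other chaperones: Hspa8 was most like Ahsa1 (r = 0.921), the activator of the HSP90 ATPase, Hsp90ab1 (r = 0.913) and Stip1 (r = 0.892), the adaptor that bridges HSP70 and HSP90. Hsp90ab1 was most like Hspa8, Ahsa1 (r = 0.890) and Ssna1 (r = 0.882). Hspa5 was most like Mydgf (r = 0.886), Rab5c (r = 0.877) and Pdia6 (r = 0.875), a disulfide isomerase of the ER. For Hsp90aa1 the nearest were Anapc11 (r = 0.868), Nudc and Syt9, for Hsph1 Dym (r = 0.925), Gm43597 and Drc1, for Dnajb1 Creb1 (r = 0.890), Pcbp2 and Ube2d3, and for Hspe1 Prdx2 (r = 0.893), Dpysl4 and Mrto4. Between members r ran from -0.70 to 0.91 over the 45 pairs.

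Many members differed between the replicate libraries of striatum in the same direction in both genotypes, and fewer did in PFC. Among pairs of a member and a striatal cell type with at least 40 UMIs, 25 of 77 were over 1.5-fold higher in replicate 1 than in replicate 2 in both WT and Setd1a+/-, where 2.95% of all gene and cell type pairs were. None of the 77 was over 1.5-fold lower in both, where 2.87% of all pairs were. In PFC 8 of 60 were over 1.5-fold higher in replicate 1 in both genotypes, against 4.47% of all pairs, and none was lower, against 5.51%. These counts are over pairs of a gene and a type from the same few libraries and are not independent of each other.

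Hspa5 differed most between the striatal replicates. In striatal OPCs it was at 1007 and 307 CPM (WT replicates 1 and 2) and at 1298 and 290 CPM (Setd1a+/- replicates 1 and 2). In striatal oligodendrocytes it was at 619 and 183 CPM (WT) and at 492 and 113 CPM (Setd1a+/-). In D1 MSNs it was at 500 and 243 CPM (WT) and at 545 and 195 CPM (Setd1a+/-). Replicate 1 was the higher in both genotypes in all 10 striatal types, by 1.19- to 4.71-fold, with a median of 2.02-fold in WT and 2.60-fold in Setd1a+/-, and by over 1.5-fold in both genotypes in 7 types. Free RNA moved the same way, with Hspa5 at 407 and 222 CPM (WT) and at 459 and 205 CPM (Setd1a+/-) of striatum.

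Some other members shared this direction in striatum. Hspa8 and Hsp90ab1 were higher in replicate 1 in both genotypes in all 10 types, over 1.5-fold in 6 and 3 of them. Hspe1 was higher in replicate 1 in 9 types, Hsp90aa1 in 8 and Hsph1 in 6. Newly formed oligodendrocytes had the broadest shift, with all 6 members measured over 1.5-fold higher in replicate 1 in both genotypes, and interneurons had none of 8. Dnajb1 was higher in replicate 1 in both genotypes in 5 of 9 types and lower in both in 2. Hspa1a was higher in replicate 1 in both genotypes in 2 of 6 striatal types. In striatal endothelial cells both Hspa1a and Hspa1b were lower in replicate 1 in both genotypes.

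In PFC the members over 1.5-fold higher in replicate 1 in both genotypes were Dnajb1, Hspa1a, Hspa1b and Hsph1. Dnajb1 was higher in replicate 1 in both genotypes in all 7 types measured, over 1.5-fold in 3 of them, and Hspa1a in 4 of 5, over 1.5-fold in 2. Hsph1 was over 1.5-fold higher in 2 of 6 types and Hspa1b in endothelial cells, the only type in which it had enough UMIs. Hspa5 in PFC had its highest value in WT replicate 1 in all 8 types, as in excitatory neurons at 330 CPM against 171, 184 and 195 CPM in the other libraries, and was higher in replicate 1 in both genotypes in 4 of the 8. Each replicate had its own animals, and animals, dissection and dissociation cannot be told apart.

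**Figure D3:**
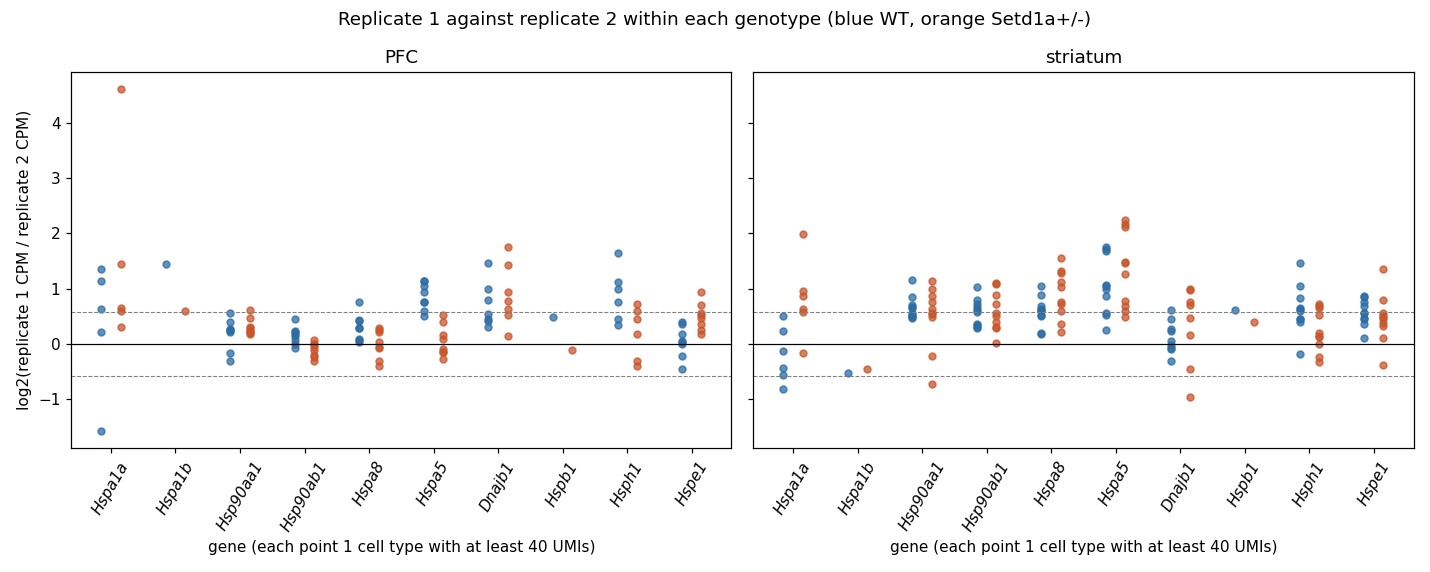
Replicate 1 over replicate 2 in CPM for each member, on a log2 axis, in PFC and striatum. Each point is 1 cell type with at least 40 UMIs (blue, WT; orange, Setd1a+/-). Most striatal points lie where replicate 1 is higher, with Hspa5 reaching 4.71-fold.

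The comparison of striatum with PFC asked whether cells of the same annotated type differed between the tissues. It had 4 libraries a side, with genotype as a covariate, in edgeR's quasi-likelihood test with Benjamini-Hochberg adjustment over all genes of a type. Of 55 tests of members in the 7 shared types, 10 passed an adjusted p under 0.05 with a fold above 1.5, and all 10 were higher in striatum. This count fell to 6 without PFC Setd1a+/- replicate 1 or 2 and to 5 without striatum Setd1a+/- replicate 1 or striatum WT replicate 1, and rose to 20 without the filter on low counts, of which 18 were higher and 2 lower in striatum. The largest of the 20 was Hspb1 in astrocytes (4.04 on the log2 scale, adjusted p = 0.000268 in edgeR's test). The filter had removed it, and it rests on 37 UMIs in striatum and 1 UMI in PFC. Among the 10 calls, Hsph1 in microglia passed the filter only through striatum, the tissue in which it was high. Hsph1 and Dnajb1 in astrocytes reached the filter level in 2 and 1 PFC libraries, and in all 4 striatal libraries. The share of all genes called higher in striatum was 8.48% in astrocytes, 13.4% in microglia, 6.31% in interneurons, 1.42% in oligodendrocytes, 5.57% in endothelial cells, 0.21% in OPCs and 0.0302% in newly formed oligodendrocytes. The median log2 fold change of the members was 0.51, while the median of all genes lay between -0.03 and 0.01 in each type. Tissue, dissection and a longer papain digestion of the striatum cannot be told apart here.

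Among members that passed the filter, astrocytes had the largest differences, with 4 of 7 called. Hsph1 in astrocytes was at 24.1, 25.7, 42.7 and 19.0 CPM in PFC (WT 1, WT 2, Setd1a+/- 1, Setd1a+/- 2) and at 254, 91.7, 362 and 329 CPM in striatum. Hsp90aa1 in astrocytes was at 232, 260, 299 and 217 CPM in PFC and at 1619, 721, 1935 and 3175 CPM in striatum. For both genes every striatal library was above every PFC library, and striatum WT replicate 2 was the lowest of the striatal libraries. The log2 difference was 3.16 ± 0.36 (SE) for Hsph1 and 2.69 ± 0.30 for Hsp90aa1. The adjusted p in edgeR's test was 2.4e-05 for Hsph1 and 2.2e-05 for Hsp90aa1. The PFC side of the Hsph1 difference rests on 29 UMIs. For Hsph1, 2 PFC and all 4 striatal libraries reached the level of the filter on low counts, so it passed mainly through striatum, where it was high. Hsp90ab1 rose by 1.12 ± 0.22 on the log2 scale (adjusted p = 0.00277) and Dnajb1 by 1.38 ± 0.38 (adjusted p = 0.0257). Dnajb1 rested on 8.13 to 34.2 CPM in PFC and 32.6 to 73.2 CPM in striatum, 1 PFC and all 4 striatal libraries reached the level of the filter (25.5 CPM in astrocytes), its groups overlapped, and its call was lost with DESeq2 (adjusted p = 0.0608) and without any of PFC Setd1a+/- replicate 2, striatum Setd1a+/- replicate 1 or striatum WT replicate 1 (adjusted p = 0.0859 to 0.187).

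Neuronal transcripts were more abundant in striatal than in PFC astrocytes: the D1 MSN markers (Drd1, Tac1 and Pdyn) summed to 52.9 to 387 CPM, the D2 MSN markers (Drd2, Adora2a, Penk and Gpr6) to 121 to 563 CPM and the interneuron markers (Gad1, Gad2 and Slc32a1) to 47.3 to 196 CPM, against at most 3.67, 8.14 and 25.7 CPM in PFC astrocytes. The astrocyte markers (Aqp4, Gja1 and Slc1a3) summed to 2410 to 3776 CPM in striatal and 4853 to 6518 CPM in PFC astrocytes. Striatum Setd1a+/- replicate 2 had only 31 astrocytes, with red blood cell transcripts at 7189 CPM. Astrocytes that held any UMI of an excitatory neuron, interneuron or MSN marker were then left out (31.1 to 54.8% of striatal and 4.28 to 13.8% of PFC astrocytes), a choice made after seeing the data. Striatum Setd1a+/- replicate 2 kept 14 of its 31 astrocytes. The same 4 members were still called, with log2 differences of 3.13 ± 0.38 for Hsph1, 2.73 ± 0.28 for Hsp90aa1, 1.58 ± 0.48 for Dnajb1 and 1.12 ± 0.22 for Hsp90ab1. Cells without a marker UMI can still hold free neuronal RNA, which this step does not remove. Hsp90aa1 in free RNA was at 1114 to 1660 CPM in PFC and 1108 to 1764 CPM in striatum, ranges that overlapped, while Hsph1 in free RNA was at 160 to 203 CPM in PFC and 253 to 313 CPM in striatum, without overlap and in the direction of the call. Both genes were higher in the free RNA of PFC than in PFC astrocytes. The share of free RNA in the astrocyte counts was not measured, so its part in the difference of either gene was not tested.

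Microglia had 4 of 8 members called. Hsph1 in microglia was at 21.3, 32.5, 40.5 and 14.6 CPM in PFC and at 193, 142, 107 and 134 CPM in striatum, without overlap, a log2 difference of 2.41 ± 0.34 (adjusted p = 0.00101 in edgeR's test). The PFC values rest on 12, 6, 4 and 3 UMIs, and no PFC library but all 4 striatal libraries reached the level of the filter on low counts (46.6 CPM in microglia), so Hsph1 entered this test only through the tissue in which it was high. Hsp90aa1 was at 268, 330, 375 and 244 CPM in PFC and at 924, 640, 781 and 911 CPM in striatum, without overlap, a log2 difference of 1.29 ± 0.23 (adjusted p = 0.00312). Hsp90ab1 (0.85 ± 0.24, adjusted p = 0.0275) and Hspa8 (0.81 ± 0.22, adjusted p = 0.0228) were also called, but both calls were lost when any of 6 of the 8 libraries was left out (adjusted p = 0.0547 to 0.0998 for Hspa8 and 0.0575 to 0.122 for Hsp90ab1) and without the filter on low counts (0.183 and 0.147). Striatal microglia, 24 to 88 cells per library, carried far more neuronal transcripts than PFC microglia: the D1 MSN markers summed to 696 to 1014 CPM, the D2 MSN markers to 705 to 1240 CPM and the interneuron markers to 321 to 538 CPM, against at most 3.55, 21.6 and 151 CPM. Without the microglia that held a neuronal marker UMI (47.7 to 79.2% of striatal and 3.40 to 22.5% of PFC microglia; striatum Setd1a+/- replicate 2, with too few cells left, was dropped), none of 7 members tested was called, nor any of 1636 genes, of which 175 had an unadjusted p under 0.05. The log2 differences were then 0.75 ± 0.26 for Hsp90aa1, 0.94 ± 0.26 for Hsp90ab1 and 0.83 ± 0.22 for Hspa8, and Hsph1 was too low to be tested. DESeq2 was not run on this smaller set of cells.

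In interneurons Hsph1 was the only one of 8 members called, 0.67 ± 0.19 higher on the log2 scale in striatum (adjusted p = 0.0302), and in oligodendrocytes Hsp90ab1 was the only one of 8, 0.89 ± 0.22 higher (adjusted p = 0.0472). Both calls were lost when any of 6 of the 8 libraries was left out, at adjusted p = 0.0532 to 0.0977 for Hsph1 and 0.0751 to 0.195 for Hsp90ab1. The Hsp90ab1 difference in oligodendrocytes was still called without cells holding a neuronal marker UMI (adjusted p = 0.0285). In OPCs and newly formed oligodendrocytes none of 7 members each was called, although all were higher in striatum and Hspa5 in OPCs reached 0.88 ± 0.39. With the replicate number as a block, Hsp90ab1 in OPCs was called as well (adjusted p = 0.0474), and without the filter on low counts Hspa5, Hspa8 and Hsp90ab1 in OPCs were called (adjusted p = 7.7e-05, 0.00019 and 0.000549). Over the 7 types edgeR's test gave unadjusted p under 0.05 for 29 of all 55 member tests, 27 of them higher in striatum, where 20.8% of all gene tests had such a p, and DESeq2 called 9.

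In endothelial cells the inducible HSP70 genes had differences of the other sign. The log2 difference of striatum over PFC was -0.997 ± 0.353 for Hspa1b (adjusted p = 0.122) and -0.56 ± 0.30 for Hspa1a (adjusted p = 0.304), neither passing the test. Without the filter on low counts both were called lower in striatum (-1.02, adjusted p = 0.00024 for Hspa1b and -0.60, adjusted p = 0.00944 for Hspa1a), and Hspa1b was also called without PFC WT replicate 2 (adjusted p = 0.0435). Hspb1 (0.57 ± 0.23 higher, adjusted p = 0.171) and Hsp90ab1 (0.61 ± 0.26 higher, adjusted p = 0.193) did not pass it either, although Hsp90ab1 was called without the filter (adjusted p = 0.0103). In interneurons the difference of Hspa1a was -0.76 ± 0.28 (adjusted p = 0.0896).

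**Figure D4:**
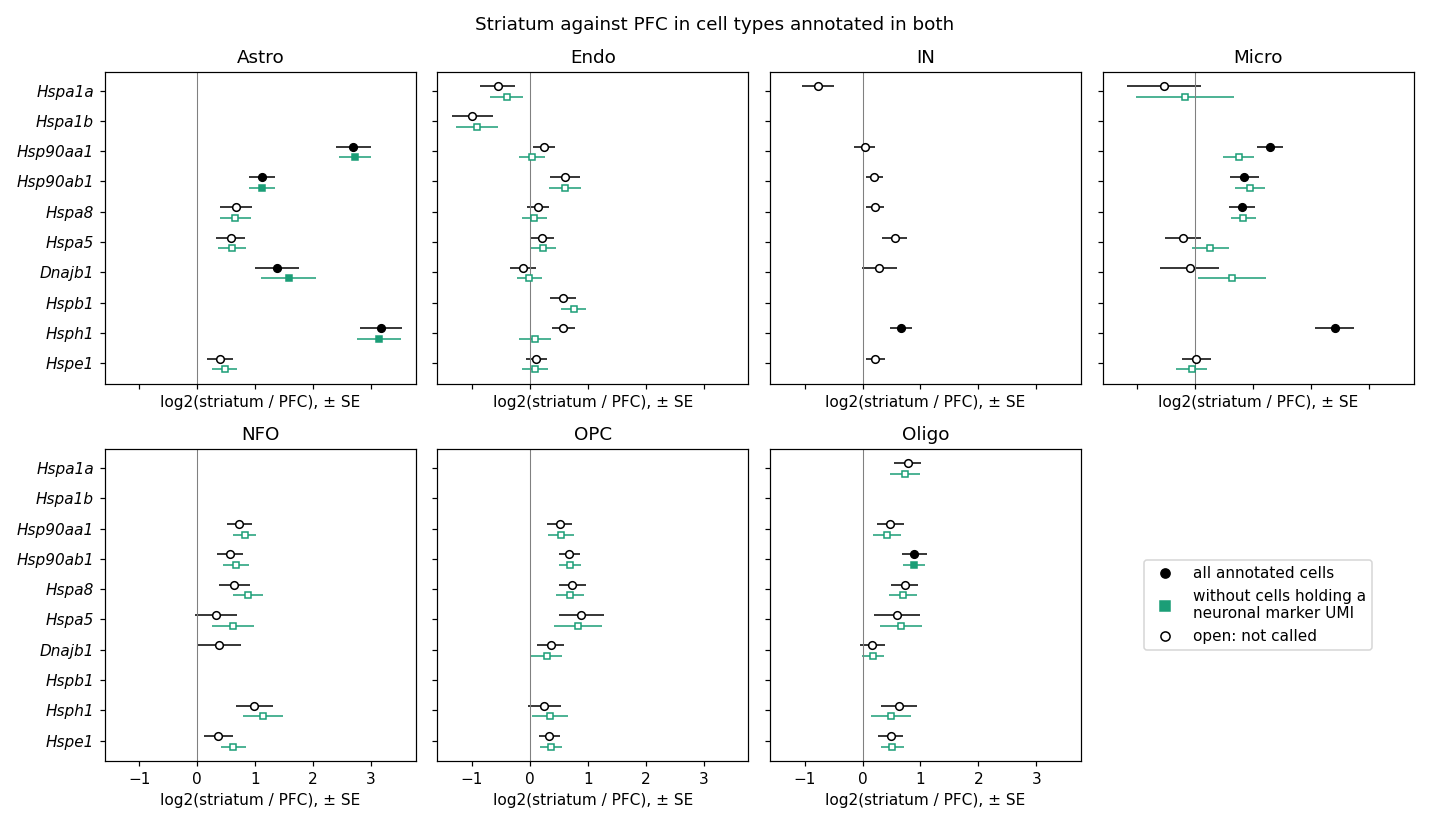
Log2 difference of striatum over PFC for each member in each of the 7 shared cell types, with its SE; filled points were called. Hsph1 and Hsp90aa1 in astrocytes lie farthest to the right, at 3.16 and 2.69, and Hspa1b in endothelial cells farthest to the left, at -0.997.

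The other chaperones of the HSP70, HSP40 and HSP90 systems were read from lists drawn up with earlier results known. Over the 7 types, 12 of 71 tests of HSP90 relatives and co-chaperones were called higher in striatum and none lower, where 4.65% of all gene tests over these types were called higher and 2.72% lower, and 9 of 86 tests of ER folding genes were higher and 1 lower. Other HSP70 genes gave 3 higher and 1 lower of 37 tests, where the share called higher was above that of all genes but rests on 3 calls. Other HSP40 genes gave 3 higher and 1 lower of 78, a share no larger than that of all genes. Hsp90b1, the HSP90 of the ER, stands in both the HSP90 and the ER list and is counted in each. Small heat shock proteins gave none higher and 1 lower of 9, and neither the 56 tests of chaperonins nor the 17 of heat shock regulators gave a call. Acute response genes gave 6 higher and none lower of 50. Whether the called list genes, also those named below, reached the level of the filter on low counts in both tissues was not examined.

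The adaptor Stip1 was called higher in striatum in astrocytes, endothelial cells, interneurons, microglia and oligodendrocytes, with log2 differences of 1.12 to 2.05. Sdf2l1, an ER partner of Hspa5, was called in astrocytes, endothelial cells, interneurons, oligodendrocytes and OPCs, by 1.70 to 2.16. In astrocytes the HSP40 genes Dnaja4 (3.36 ± 0.47) and Dnajc6 (3.35 ± 0.76), the HSP90 co-chaperones Fkbp4 (1.67 ± 0.38), Ptges3 (1.35 ± 0.34) and the ER lectin chaperone Calr (1.35 ± 0.28) were higher as well. Dnajc6 was called lower in striatal oligodendrocytes (-0.82 ± 0.19), the HSP40 gene counted as lower. In microglia Hspa4l, a relative of Hsph1, was 2.15 ± 0.46 higher and Canx, the membrane-bound ER lectin, lower (-0.76 ± 0.24). Cryab (alpha-B-crystallin) was lower in striatal interneurons (-1.49 ± 0.19). Among acute response genes Fos was 2.16 ± 0.28 and Junb 1.98 ± 0.44 higher in striatal oligodendrocytes, and Junb was also called in endothelial cells, interneurons and microglia. Without cells holding a neuronal marker UMI (interneurons aside), 17 of the 30 calls on genes of these lists were still made, 8 genes were tested and not called, and 5 were too low to be tested. In microglia none of the 6 calls was made: Junb (log2 difference 2.94, adjusted p = 0.0591), Egr1 (2.10, adjusted p = 0.25), Ptges3 (1.30, adjusted p = 0.427) and Canx (-0.43, adjusted p = 0.499) did not pass edgeR's test, and Stip1 and Hspa4l were too low to be tested. The differences of Junb, Egr1 and Ptges3 were no smaller than with all microglia (1.88, 1.70 and 1.22). In astrocytes 10 of 13 were still called, Dnajc6, Fkbp4 and Sdf2l1 being too low to be tested, and in endothelial cells Stip1 was not, although its difference was 1.46 against 1.31 with all cells (adjusted p = 0.0513), nor was Dnajc6 in oligodendrocytes (-0.62, adjusted p = 0.241).

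The comparison of Setd1a+/- with WT asked whether loss of a Setd1a copy changed these genes. With 2 libraries a side, edgeR's quasi-likelihood test called none of 59 member tests in the 8 PFC cell types, none of 43 in 6 excitatory subtypes (DL-Pou3f1, with 7 cells in a library, was not fitted) and none of 78 in the 10 striatal types. The background was 0% of all gene tests called in PFC types, 0% in subtypes and 0.00544% in striatum (4 of 73479), and DESeq2 called no member in any of them. At an unadjusted p under 0.05 there were 1 of 59, 1 of 43 and 2 of 78 member tests, against 1.70%, 1.60% and 2.62% of all gene tests. The smallest adjusted p of a member was 0.999 in PFC types, 0.999 in subtypes and 0.919 in striatum. With the replicate number as a block, which the design pairs, 26, 11 and 79 gene tests were called in these comparisons, and again no member.

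The tests with an unadjusted p under 0.05 were Hsph1 in PFC interneurons, Dnajb1 in the DL-Nnat neurons, Dnajb1 in striatal OPCs and Hsp90aa1 in striatal astrocytes. Hsph1 in PFC interneurons was at 251 and 197 CPM (WT) and at 115 and 142 CPM (Setd1a+/-), without overlap, a log2 difference of -0.78 ± 0.28. Dnajb1 in DL-Nnat neurons was at 51.4 and 42.5 CPM (WT) and at 66.3 and 108 CPM (Setd1a+/-), a difference of 0.89 ± 0.33. Neither passed the adjustment over all genes, with adjusted p of 0.9996 and 0.9999 in edgeR's test. Dnajb1 in striatal OPCs was at 49.5 and 52.6 CPM (WT) and at 89.97 and 55.5 CPM (Setd1a+/-) (0.68 ± 0.29). Hsp90aa1 in striatal astrocytes was at 1619 and 721 CPM (WT) and at 1935 and 3175 CPM (Setd1a+/-) (1.01 ± 0.41), the highest value being that of the library with 31 astrocytes.

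Below the threshold, Dnajb1 had a positive log2 difference in all 10 striatal types, in 5 of 6 PFC types and in all 6 subtypes, with medians of 0.46, 0.63 and 0.31. Hspa5 had a negative difference in all 8 PFC types and all 6 subtypes, with medians of -0.20 and -0.35, but without PFC WT replicate 1, the high library named above, it was positive in all 8 types and in 5 of 6 subtypes (medians 0.19 and 0.05). The Dnajb1 difference was positive in 6 of 10 striatal types without striatum Setd1a+/- replicate 1, and in 3 of 6 subtypes without PFC Setd1a+/- replicate 1 or PFC WT replicate 2. In striatum Hspa5 was positive in 5 and negative in 5 of 10 types, and was negative in all 10 without Setd1a+/- replicate 1 or WT replicate 2 and positive in all 10 without either of the other libraries. Types of a tissue come from the same libraries, so these counts are not independent. In endothelial cells Hspa1a differed by -0.38 ± 0.52 in PFC and -0.20 ± 0.21 in striatum.

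The striatal Hspa5 values decided a genotype call in a single case: without striatum Setd1a+/- replicate 1, Hspa5 was called lower in Setd1a+/- oligodendrocytes (log2 difference -1.90, adjusted p = 6.5e-06) and OPCs (-1.18, adjusted p = 0.000291). The library left in the Setd1a+/- group was then a replicate 2 library, in which Hspa5 was low in both genotypes, against both WT replicates. The genotype-by-tissue interaction was called for none of 55 member tests and none of 49915 gene tests in edgeR (0%), and DESeq2 also called none. At an unadjusted p under 0.05 there were 1103 gene tests and 2 member tests, Hspb1 (0.93 ± 0.40) and Hspa1b (1.46 ± 0.62) in endothelial cells, each lower in Setd1a+/- than in WT in PFC and higher in striatum. Their log2 differences were -0.54 ± 0.27 and 0.36 ± 0.26 for Hspb1 and -0.99 ± 0.45 and 0.44 ± 0.31 for Hspa1b in PFC and striatum.

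**Figure D5:**
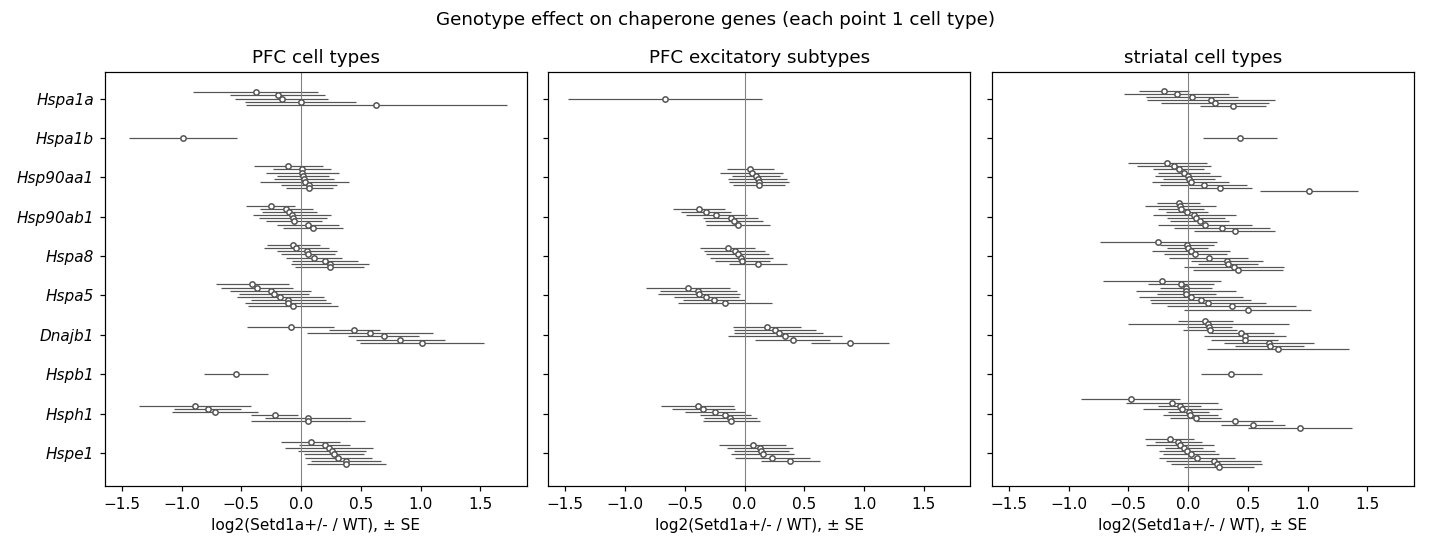
Log2 difference of Setd1a+/- over WT for each member and cell type in PFC and striatum. No point was called, and the differences run from -0.99 (Hspa1b, PFC endothelial cells) to 1.01.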

How the data were processed

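Single cells were captured on the 10x Chromium platform, and per the labels the authors processed reads with Cell Ranger 3.0.2 against mm10 and analysed cells with Seurat 3.2.0. The deposited matrices hold raw UMI counts for 31053 genes and 737280 barcodes, empty droplets included. Cell types are those of the authors' deposited annotation, whose cells had at least 800 genes and under 10% mitochondrial UMIs. The authors' normalized expression tables were not used.

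UMI counts were summed per library and cell type. Differences were tested with edgeR 4.0.16 (quasi-likelihood, TMM, filterByExpr with a minimum count of 10, types with at least 10 cells in each library) in R 4.3.3, with Benjamini-Hochberg adjustment over all genes of a type. Calls needed an adjusted p under 0.05 and a fold above 1.5 in PFC and between tissues or 2 in striatum, the study's thresholds, and for the interaction the adjusted p alone. DESeq2 1.42.0, total UMIs alone, no filter, the replicate block and leaving out each library were alternatives. Simulated data with 200 changed genes were used to check the script.

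The members, lists and tests were chosen with earlier results of these data known. The named genes were the 10 members, called genes of the lists (at most 4 a list and comparison by size), and the 3 genes most like each member. Canx was named after its value was seen, as the ER folding gene called lower. Per the methods 1 library of each genotype was made in each replicate. The differences between replicates correlated between genotypes across genes (median r = 0.343 over PFC types and 0.181 over striatal types). Thinning used 1000 UMIs, a fixed seed and 95% Wilson intervals, which like the limit of 3 counts for a share of 0 cover counting error only. Doublets were treated only by the authors' annotation. Promoters are RefSeq windows of GRCm38.p6, and motifs were matched on both strands, GAANNTTC and TTCNNGAA as separate motifs.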

Additional observations from a re-analysis of the deposited data

How the results depend on the processing

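In PFC types the 0 genotype calls over all genes became 1 with DESeq2, 63 without the filter, 26 with the replicate block, and 25 to 122 without single libraries. In subtypes the 0 calls became 28, 11 (block) and 7 to 306, and in striatum the 4 calls became 110, 79 (block) and 67 to 402. Members were called only without striatum Setd1a+/- replicate 1 (2 calls, range 0 to 2), where Hspa5 in OPCs reversed to -1.18 (range without single libraries -1.18 to 1.45). The block changed no other member call than that of Hsp90ab1 in OPCs between tissues. The 3387 tissue calls became 6957 without the filter, 1702 without cells holding a neuronal marker UMI, and 1901 to 4444 without single libraries. The 10 member calls became 20 (2 of them lower in striatum), 6 and 5 to 11. Interneurons kept all their cells in the fit without neuronal marker UMIs, and gave 960 of its 1702 calls and 1 of its 6 member calls. The 0 interaction calls became 26 without the filter and 0 to 4 without single libraries. The causes were not tested. A fit that leaves out a library tests the lone remaining library as if it varied like the others. The cell type with the highest mean stayed the same without any single library in 15 of 20 pairs of a member and tissue. It changed in the other 5, Hsp90aa1 in PFC, Hsp90ab1 in both tissues, and Hspa8 and Hsph1 in striatum. Depth limits Hspa1b and Hspb1 most: outside endothelial cells they had too few UMIs to pass the filter.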
